A study of Sus scrofa with 63 samples.

Results

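The contractile genes of smooth muscle were followed in the jejunum of pig fetuses through the array probes of ACTA2, ACTG2, MYH11, TAGLN, CNN1, DES, LMOD1, MYLK, TPM2 and CALD1. A probe was taken when its gene name in the scanner files equalled one of these 10 names, whatever its values. This gave 39 of 60305 probes and 9 of the 10 genes. MYLK had 13 probes, ACTA2 had 8, TPM2 had 6, DES had 4, CNN1 had 3 and ACTG2 had 2, while MYH11, TAGLN and CALD1 had 1 each. LMOD1, which starts actin filaments in smooth muscle, had no probe under its name and is named only. The 3 probes whose description names a leiomodin were described as those of its relatives LMOD2 and LMOD3 and were not used.

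Jejunum RNA of 63 male fetuses of Large White (LW) and Meishan (MS) pigs was hybridised to 1-colour Agilent arrays, with 1 fetus per array. A genotype is written with the sire first, so that LWLW and MSMS were purebred, LWMS had an LW sire and an MS sow, and MSLW had an MS sire and an LW sow. At day 90 of gestation there were 9 LWLW, 8 MSLW, 9 LWMS and 6 MSMS fetuses, and at day 110 there were 9 LWLW, 6 MSLW, 9 LWMS and 7 MSMS fetuses. No fetus carried a treatment or an engineered allele, sows received mixed semen so that a litter could hold purebred and crossbred fetuses, and the sow was not a term in the fits, so that litter mates count as independent. A middle segment of jejunum was used, and in such tissue fewer smooth muscle cells and less RNA per cell cannot be told apart.

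A level is given as the log2 of the background-corrected signal minus the 75th percentile of its array. It compares fetuses for 1 probe and does not rank genes. Each gene was represented by its brightest tested probe, and for the 9 genes this probe was well above background on all 63 arrays. Over whole arrays, the share of probes well above background ran from 51.2 to 87.6%. The 3 arrays farthest from the median were LWMS fetus 823 at day 90 (87.6%), LWLW fetus 469 at day 110 (51.2%) and MSLW fetus 851 at day 110 (80.4%). KRT8 and APOA4, markers of jejunum epithelium, passed the filter on dim probes.

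Smooth muscle of the gut wall contracts when calcium leads to the activation of myosin light chain kinase, the product of MYLK, which phosphorylates myosin so that it pulls on actin. ACTA2 and ACTG2 encode the actins of smooth muscle, of which ACTG2 is the form typical of the gut and ACTA2 of vessels and of young muscle. MYH11 encodes the myosin heavy chain, TPM2 a tropomyosin, CNN1 calponin and CALD1 caldesmon, which lie along the actin filament. TAGLN encodes transgelin, an actin-binding protein, and DES encodes desmin, the intermediate filament that ties contractile units together. In late gestation the muscle layers are already laid down, and the gut prepares for peristalsis after birth.

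The probes are shown first because some results rest on a single oligonucleotide of 60 bases, and because the actins and tropomyosins are close relatives. Whether each probe reads only its own gene was not tested. Of the 8 ACTA2 probes, 1 matched a probe of ACTA1, the actin of skeletal muscle, at 56 of 60 positions, so that the 8 are not all separate readings of ACTA2. The brightest, A_72_P556110, shared a run of 15 bases with a probe of ACTC1, the actin of heart muscle, and O9213 a run of 26 bases with a probe of ACTA1. In the ACTA2 probe printed here the longest run shared on the same strand with a probe of another actin gene was 9 bases.
ACTA2 A_72_P529904: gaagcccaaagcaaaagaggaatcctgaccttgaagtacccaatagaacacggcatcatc
Of the 6 TPM2 probes, 4 overlap on 1 transcript and are not separate readings, as the 40 bases in capitals show for the brightest and a neighbour.
TPM2 A_72_P586401: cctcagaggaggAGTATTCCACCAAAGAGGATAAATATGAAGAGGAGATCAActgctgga
TPM2 A_72_P031791: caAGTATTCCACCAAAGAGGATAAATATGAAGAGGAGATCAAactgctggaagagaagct
The single probes of MYH11 and TAGLN, the brightest MYLK probe and 3 probes of DES, on which later results rest, had these sequences.
MYH11 O1428: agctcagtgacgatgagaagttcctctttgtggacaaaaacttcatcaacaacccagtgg
TAGLN A_72_P079791: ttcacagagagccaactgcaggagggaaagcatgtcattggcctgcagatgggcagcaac
MYLK A_72_P580967: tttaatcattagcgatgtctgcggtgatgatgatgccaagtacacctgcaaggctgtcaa
DES A_72_P350098: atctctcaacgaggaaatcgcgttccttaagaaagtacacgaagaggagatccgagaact
DES A_72_P684426: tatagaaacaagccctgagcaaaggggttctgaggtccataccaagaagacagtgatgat
DES A_72_P601893: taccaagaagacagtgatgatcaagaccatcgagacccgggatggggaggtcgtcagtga

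The first question was how the contractile genes changed between day 90 and day 110. Averaged over the 4 genotypes, ACTA2 and MYLK fell, and no contractile gene rose. These were 2 of 9 genes called by limma at an adjusted p of at most 0.01, where 28.5% of all 40515 probes tested were called and 15.9% were called lower. Counted by probe, 21 of the 39 probes were called, and all 21 were lower at day 110. These were 8 probes of ACTA2, 10 of MYLK and 3 of DES. Some probes of each of these genes overlap on 1 transcript, so that the 21 are not separate readings. The median log2 difference of the 9 genes was -0.17, and that of all probes tested was -0.02. Of all probes called, 55.7% were lower, and 45.0% when the median of each array was subtracted in place of the 75th percentile.

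ACTA2 showed the clearest change. At day 90 its level had a median of 7.16 in LWLW (lowest 6.89, highest 7.71), 7.13 in MSLW (6.95, 7.30), 7.02 in LWMS (6.73, 7.43) and 7.0 in MSMS (6.69, 7.54). At day 110 the LWLW fetuses ranged from 6.30 to 7.15 with a median of 6.71, the MSLW fetuses from 6.14 to 6.86 with a median of 6.57, the LWMS fetuses from 5.91 to 7.02 with a median of 6.31, and the MSMS fetuses from 6.09 to 7.13 with a median of 6.58. In MSLW the ages did not overlap, since all 6 fetuses of day 110 lay below all 8 fetuses of day 90, a pattern that 2.26% of the probes tested showed. In LWMS, 8 of 9 fetuses of day 110 lay below every fetus of day 90, as did 5 of 9 in LWLW and 4 of 7 in MSMS. The log2 difference of day 110 minus day 90, averaged over genotypes, was -0.55 ± 0.07 (SE, 63 fetuses), or 1.47-fold lower, with a 95% interval of -0.70 to -0.40 and an adjusted p of 1.73e-08. All 8 ACTA2 probes were called lower, with log2 differences of -0.66 to -0.49, of which -0.66 belongs to the probe nearly identical to that of ACTA1. The ACTA2 probe printed above gave -0.63 (SE 0.09, adjusted p = 2.13e-07). Within each of the 8 slides the mean of ACTA2 at day 110 was lower, by log2 differences of -0.79 to -0.40. Such slide means reuse the same fetuses. Some slides did not hold all 8 groups, so that age mixes with genotype there.

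**Figure D1:**
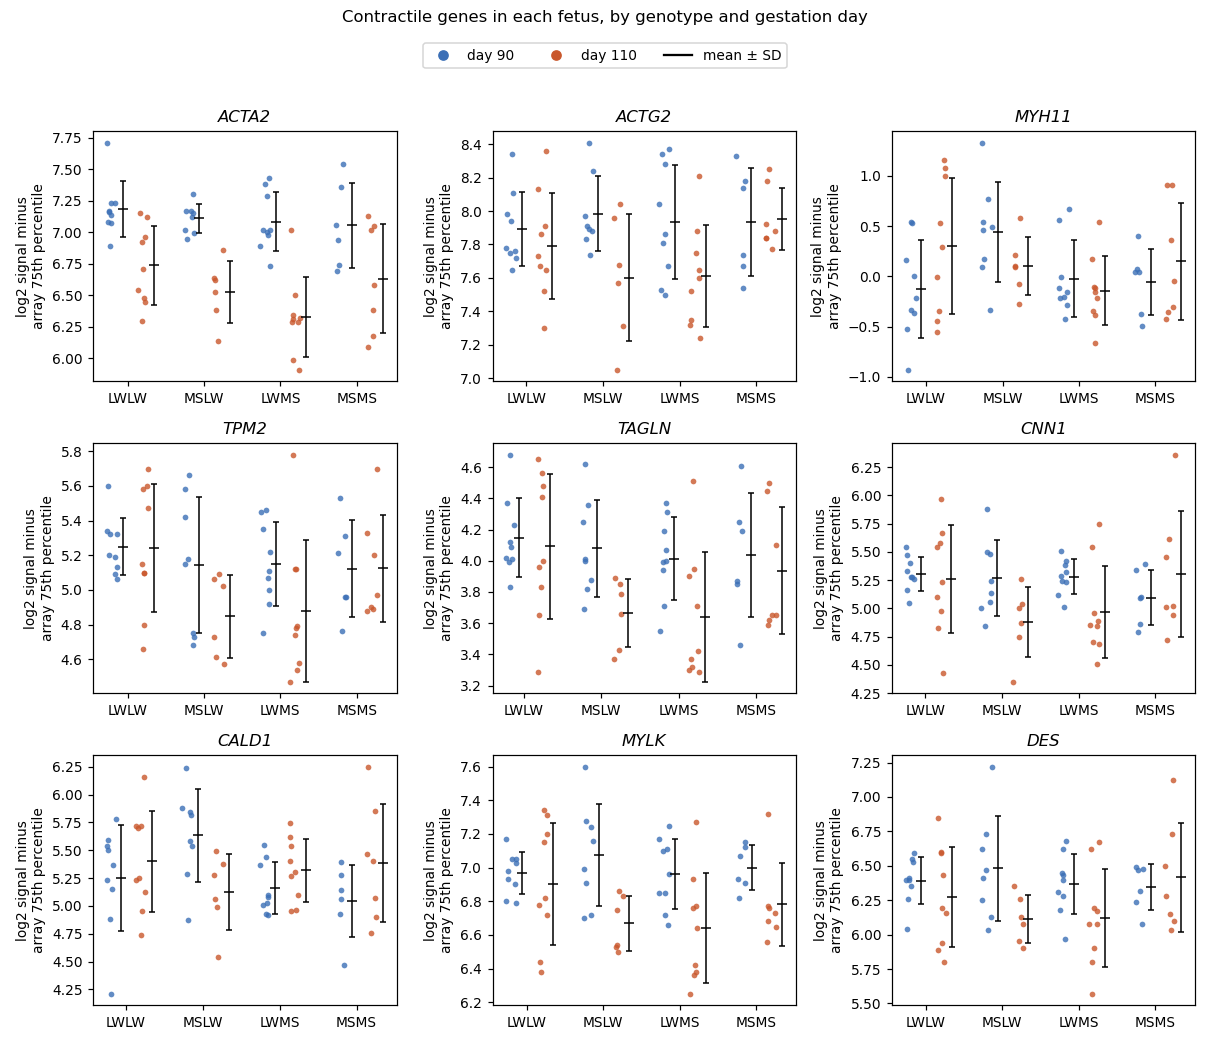
The level of each contractile gene in each fetus is plotted by genotype for day 90 (blue) and day 110 (orange), as log2 signal minus the 75th percentile of the array, with the mean and SD of each group in black. ACTA2 is lower at day 110 in each genotype, without overlap in MSLW, while MYH11 and CALD1 overlap widely.

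MYLK, the kinase that starts contraction, changed less at its brightest probe. Its median level at day 90 was 6.98 in LWLW (lowest 6.79, highest 7.17), 7.07 in MSLW (6.70, 7.60), 6.96 in LWMS (6.66, 7.25) and 7.0 in MSMS (6.82, 7.15). By day 110 LWLW fetuses ranged from 6.38 to 7.34 with a median of 6.82, MSLW fetuses from 6.50 to 6.86 with a median of 6.64, LWMS fetuses from 6.25 to 7.27 with a median of 6.64, and MSMS fetuses from 6.56 to 7.32 with a median of 6.73. At this probe the ages overlapped in all 4 genotypes, although 6 of 7 MSMS fetuses of day 110 lay below every MSMS fetus of day 90. The log2 difference was -0.25 ± 0.07 (SE), or 1.19-fold lower, with an adjusted p of 0.00205, and it was negative within all 8 slides. The call was lost with quantile normalization (-0.23, adjusted p = 0.0425), with the array median subtracted (-0.20, adjusted p = 0.089) and with the authors' matrix (-0.25, adjusted p = 0.0296).

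The MYLK probes disagreed in size. Of 13 probes, 10 were called lower, with the largest difference at A_72_P587611 (-0.56, SE 0.09, adjusted p = 7.55e-07). In MSLW the ages did not overlap by this probe, with a lowest level of 3.26 at day 90 and a highest of 3.2 at day 110. The same held for A_72_P619390, with 4.37 and 4.33. Of all probes tested 2.26% showed this pattern in MSLW. The bright probe A_72_P231742, which the files place on the same transcript as the brightest, gave -0.21 and was not called. Probes A_72_P502829 (0.05, SE 0.13) and O13670 (0.13, SE 0.24) were not called either, and O13670 was well above background on 38 of 63 arrays. The files place A_72_P502829 on the transcript of the brightest probe too, and several of the called probes, A_72_P587611 among them, together on another. The mean over all 13 probes gave a log2 difference of -0.35 with an adjusted p of 2.87e-06. It leans on those called probes and is not a mean of separate readings.

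DES was the gene for which the choice of probe decided the result. Its brightest probe, A_72_P177466, ranged at day 90 from 6.04 to 6.59 in LWLW, 6.03 to 7.22 in MSLW, 5.97 to 6.68 in LWMS and 6.08 to 6.49 in MSMS. At day 110 it ranged from 5.80 to 6.85 in LWLW, 5.90 to 6.35 in MSLW, 5.57 to 6.67 in LWMS and 6.03 to 7.12 in MSMS, so that the ages overlapped in all 4 genotypes. Its log2 difference of -0.17 ± 0.08 (SE) was not called, with an adjusted p of 0.0782. The 3 other probes, whose sequences are printed above, were called lower with log2 differences of -0.56 for A_72_P350098, -0.46 for A_72_P601893 and -0.42 for A_72_P684426. A_72_P350098 went from medians of 0.26 in LWLW, 0.29 in MSLW, 0.14 in LWMS and 0.19 in MSMS at day 90 to medians of 0.06, -0.49, -0.48 and -0.41 at day 110. With the mean of the 4 probes DES was called lower, with a log2 difference of -0.40 and an adjusted p of 0.000206. Probes A_72_P684426 and A_72_P601893 overlap in sequence and are not separate readings. In MSLW the ages did not overlap by A_72_P350098, with a lowest level of -0.07 at day 90 and a highest of -0.23 at day 110. Of all probes tested 2.26% showed this pattern in MSLW. The 4 probes shared part of their variation between fetuses, since r of the brightest with the other 3 was 0.59 to 0.78.

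ACTG2, the gut form of smooth muscle actin, ranged from 7.50 to 8.41 over the 32 fetuses of day 90 and from 7.05 to 8.36 over the 31 fetuses of day 110. Its medians were 7.89 and 7.75, and the groups overlapped in every genotype. The log2 difference was -0.20 ± 0.08 (SE), with a 95% interval of -0.35 to -0.04 and an adjusted p of 0.0343, above the threshold of 0.01. The other ACTG2 probe gave -0.10 (SE 0.07, adjusted p = 0.244), and the fetuses that were high by one probe were high by the other, with r of 0.75 within groups. TAGLN behaved like ACTG2, with 3.46 to 4.68 (median 4.02) at day 90, 3.29 to 4.65 (median 3.79) at day 110, a log2 difference of -0.24 ± 0.09 (SE) and an adjusted p of 0.0324. Its mean was lower at day 110 within all 8 slides, by log2 differences of -0.44 to -0.07, with the limits given for the slide means of ACTA2. ACTG2 and TAGLN were called when the threshold was an adjusted p of 0.05.

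The other proteins of the thin filament were not called. TPM2, the tropomyosin, ranged from 4.68 to 5.66 at day 90 and from 4.47 to 5.78 at day 110, with a log2 difference of -0.14 ± 0.08 (SE) and an adjusted p of 0.162. Its 6 probes were all negative, from -0.31 to -0.14, and none was called. The value of -0.31 came from O610, whose signal within groups had r of 0.09 with that of the brightest probe. CNN1, calponin, ranged from 4.79 to 5.88 at day 90 and from 4.35 to 6.36 at day 110, with a log2 difference of -0.14 ± 0.09 (SE) and an adjusted p of 0.247. Its 3 probes gave nearly the same result, between -0.14 and -0.10. CALD1, caldesmon, ranged from 4.21 to 6.24 and from 4.54 to 6.25, with a median of 5.28 at each age. Its log2 difference was 0.04 ± 0.10 (SE), with a 95% interval of -0.17 to 0.24, and it turned to -0.02 with quantile normalization, -0.01 with the authors' matrix and -0.06 with array weights.

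MYH11, the myosin heavy chain and the thick filament member of the group, ranged from -0.93 to 1.33 (median 0.02) at day 90 and from -0.66 to 1.16 (median -0.05) at day 110. Its log2 difference was 0.04 ± 0.12 (SE), with an adjusted p of 0.819 and a 95% interval of -0.20 to 0.28. This interval lay above that of ACTA2, which ended at -0.40. The difference between the genes was not itself tested.

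**Figure D2:**
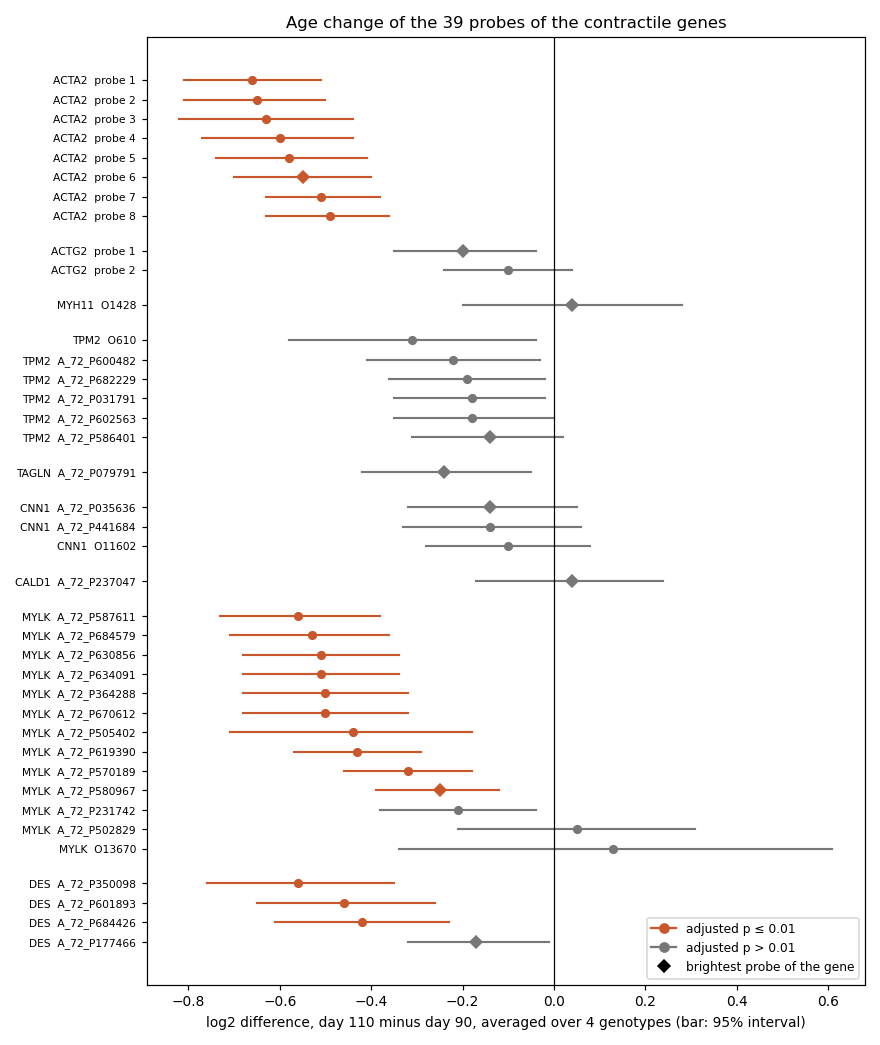
Each row is 1 of the 39 probes with its log2 difference of day 110 minus day 90, averaged over 4 genotypes, and the 95% interval; orange marks an adjusted p of at most 0.01 and a diamond the brightest probe of the gene. All 8 ACTA2 probes, 10 of 13 MYLK probes and 3 of 4 DES probes lie left of 0 in orange, and no probe is orange on the right.

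The change was next taken in each genotype alone. At its brightest probe, ACTA2 was called lower in LWMS and MSLW, where it was the single gene called, and in LWLW 1 of its 8 probes was called lower (O9213, -0.44 ± 0.12 SE, adjusted p = 0.00995). In LWMS its log2 difference was -0.75 ± 0.14 (SE, adjusted p = 4.33e-05), where 11.1% of all probes were called. In MSLW it was -0.58 ± 0.16 (SE, adjusted p = 0.00913), where 5.71% of all probes were called. In the purebreds the differences of ACTA2 were -0.45 ± 0.14 in LWLW (SE, adjusted p = 0.0229) and -0.42 ± 0.16 in MSMS (SE, adjusted p = 0.104), both not called at the brightest probe. The MSLW call was lost with 6 of the 11 alternatives, among them the slide as a block (adjusted p = 0.0145), the array median subtracted (0.0541) and the fit without the 3 arrays named above (0.0396, chosen after the data were seen), and the LWMS call with the array median subtracted (adjusted p = 0.0125).

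By limma, 0 of 9 genes were called in LWLW, where 5.28% of all probes were, and 0 of 9 in MSMS, where 3.19% were. At an unadjusted p under 0.05 there was 1 gene in LWLW and 1 in MSMS, which was ACTA2 in both, against 4 in LWMS and 7 in MSLW. At that cutoff, of all 40515 probes tested, 9663 passed in LWLW, 8297 in MSMS, 12820 in LWMS and 10313 in MSLW. By probe the counts of 39 were 1 in LWLW, 0 in MSMS, 16 in LWMS and 15 in MSLW, and all of those called were lower, where 2.83% of all probes were called lower in LWLW, 6.36% in LWMS and 3.2% in MSLW. The probes called in the crossbreds were those of ACTA2, MYLK and DES. In MSLW all 9 genes had a negative difference, from -0.58 for ACTA2 to -0.30 for TPM2, and 8 of 9 were negative in LWMS, 7 in LWLW and 3 in MSMS. CALD1 spanned the widest range, at 0.34 ± 0.22 in MSMS, 0.16 ± 0.19 in LWMS, 0.15 ± 0.19 in LWLW and -0.51 ± 0.21 in MSLW (SE). MYH11 gave 0.43 ± 0.22 in LWLW, 0.20 ± 0.26 in MSMS, -0.12 ± 0.22 in LWMS and -0.34 ± 0.25 in MSLW (SE).

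These genotypes were compared directly by the F test of the interaction between age and genotype. It called 0 of 9 genes at an adjusted p under 0.05, where 0.0913% of all probes were called. At an unadjusted p under 0.05 it found 1 gene, CALD1, with a limma adjusted p of 0.602, where 3019 of all 40515 probes passed. The other fits that were run also called 0. The age change was therefore not shown to differ between genotypes for any of the 9 genes. The F test of any difference among the 8 groups called ACTA2 (adjusted p = 1.08e-06), which is 1 of 9 genes, and 19 of 39 probes, where 28.7% of all probes were called.

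**Figure D3:**
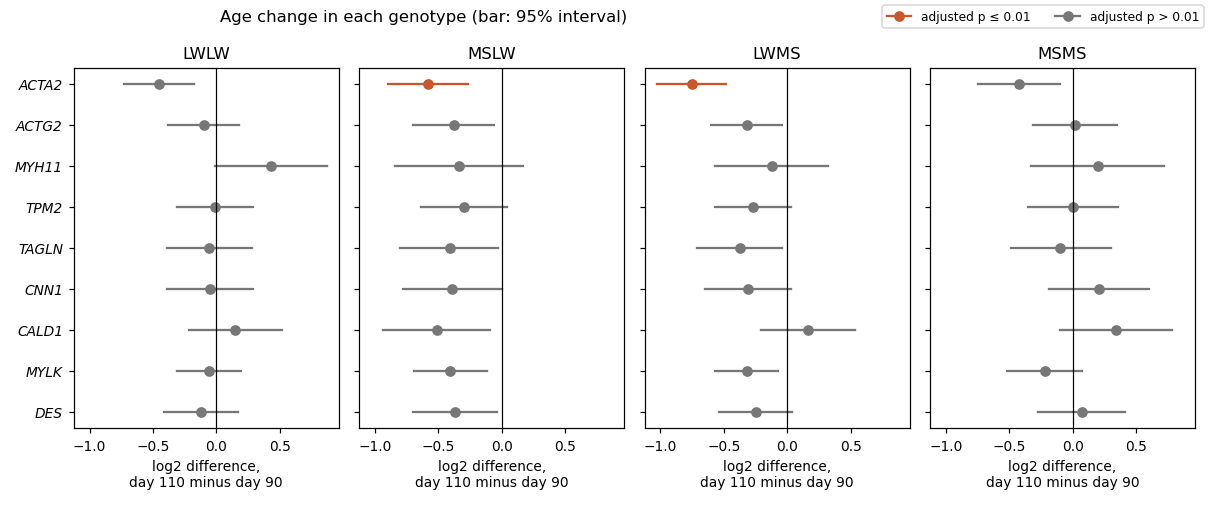
Each panel is a genotype and each row a contractile gene at its brightest probe, with the log2 difference of day 110 minus day 90 and its 95% interval; orange marks an adjusted p of at most 0.01. ACTA2 is orange in MSLW and LWMS, and all 9 points of MSLW lie left of 0, while those of LWLW and MSMS lie on both sides of 0.

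Breed was compared between the purebreds at each age. At day 90, MSMS minus LWLW ran from -0.21 for CNN1 to 0.08 for MYH11, and 0 of 9 genes were called by limma, where 3.66% of all probes were. At day 110 the differences ran from -0.15 for MYH11 to 0.16 for ACTG2, and again 0 of 9 were called, where 5.26% of all probes were. No gene passed an unadjusted p under 0.05 at either age, and 1 and 3 of the 39 probes did, where 7298 and 9422 of all 40515 probes did. The 95% intervals together reached from -0.63 to 0.57, so that these groups leave room for breed differences of about the size of the ACTA2 age change. ACTA2 itself differed by -0.13 (95% interval -0.44 to 0.18) at day 90 and by -0.10 (95% interval -0.40 to 0.19) at day 110.

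The parents' breeds were then compared over sire or sow and both ages. For MS minus LW sows the log2 differences ran from -0.20 ± 0.12 (SE) for MYH11 to 0.04 ± 0.08 (SE) for ACTG2, and 8 of 9 were negative. By limma 0 of 9 genes were called at an adjusted p under 0.05, where 16.0% of all probes were, and none passed an unadjusted p under 0.05. With array weights 4 genes were called lower for MS sows, namely ACTA2 (-0.24, adjusted p = 0.00213), MYH11 (-0.32, adjusted p = 0.012), TAGLN (-0.20, adjusted p = 0.0373) and CALD1 (-0.22, adjusted p = 0.0227). With the authors' matrix ACTA2 alone was called (-0.27, adjusted p = 0.0496). The share of all probes that either fit called for sow is not given here, so that these counts cannot be set against the 16.0%. For age, array weights called 38.6% of all probes, where the main fit called 28.5%. Within slides ACTA2 was lower for MS sows on 6 of 8 slides and MYH11 on 5. On some slides the days were not balanced between the sow breeds, so that these counts mix age with sow breed. For MS minus LW sires the differences ran from -0.07 for CNN1 and TPM2 to 0.16 for MYH11, and 0 of 9 genes were called, where 6.95% of all probes were, also without an unadjusted p under 0.05 and with 0 calls in each other fit.

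In some groups a single fetus was the highest or the lowest for most of the genes. In LWLW at day 110, fetus 575 had the highest level for 7 of the 9 genes and fetus 852 the lowest for 8, and the means of their 9 levels were 5.91 and 4.73. In LWMS at day 110, fetus 609 was highest for 8 genes (mean 5.68) and fetus 411 lowest for 5 (mean 4.65). In MSLW at day 90, fetus 450 was highest for 8 genes, with a mean of 6.0. This did not hold in every group. In MSLW at day 110 no fetus was highest for more than 3 genes or lowest for more than 4. In MSMS at day 90, fetus 532 was highest for 6 genes but lowest for CALD1. Correlations of the deviations from the group means had a median Pearson's r of 0.68 over the 36 pairs of genes and 63 arrays. These points share the array and its scaling, so that the values are a description.

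TAGLN and TPM2 were closest, with r of 0.94, and ACTG2 and CALD1 were farthest apart, with 0.09. CNN1 and DES (0.88), MYLK and TPM2 (0.88) and TAGLN and DES (0.84) also moved together. With the other 7 genes, r ran from 0.18 (ACTG2) to 0.59 (CNN1 and DES) for MYH11 and from 0.09 (ACTG2) to 0.66 (DES) for CALD1, and these genes reached 0.78 with each other. The median r was 0.62 among fetuses of day 90 (lowest -0.26, highest 0.92) and 0.77 among those of day 110 (lowest 0.4, highest 0.95).

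**Figure D4:**
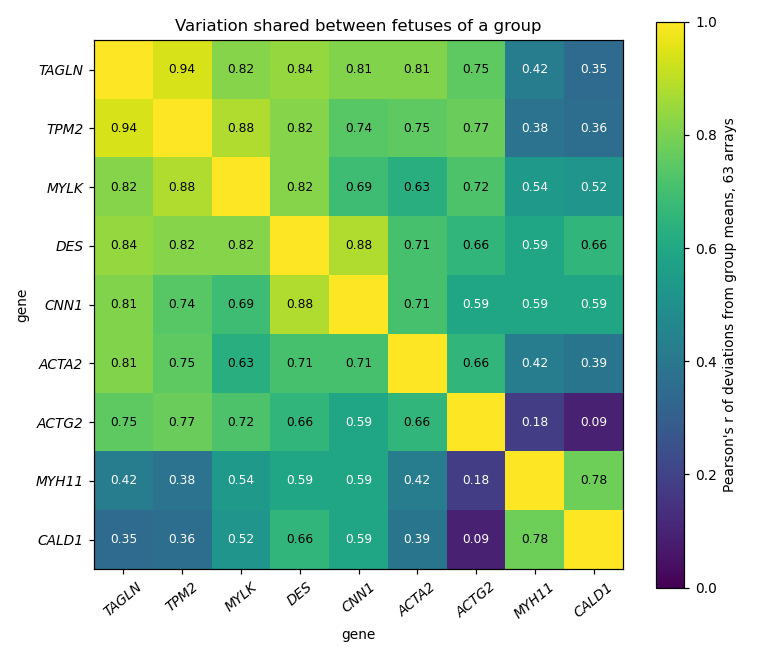
Each cell gives Pearson's r between 2 contractile genes over 63 arrays after the mean of each group was subtracted, on a colour scale from 0 to 1. TAGLN, TPM2, MYLK, DES and CNN1 share values of 0.69 to 0.94, and MYH11 and CALD1 share 0.78 while they reach lower values with ACTG2.

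The SD within groups was 0.23 at day 90 and 0.45 at day 110 for CNN1, 0.23 and 0.33 for ACTA2, 0.21 and 0.30 for MYLK, and 0.30 and 0.40 for TAGLN. It was wider at day 110 for all 9 genes, where 61.1% of all probes tested were wider. The ratios ran from 1.08 for ACTG2 to 1.99 for CNN1, and the median ratio of all probes was 1.09. No test of this difference was made.

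The genes outside the group whose levels over the 63 arrays were most like the mean of the 9 genes were LIMS2 (r = 0.93), TPM1 (0.92), FERMT2 (0.90), DKK3 (0.88), PGM5 (0.87), SMARCD3 (0.87), PHACTR3 (0.85), FHL1C (0.84), HSPB8 (0.83) and MYL9 (0.83). They were chosen for this likeness, and their own age changes ran from -0.55 ± 0.11 (SE, adjusted p = 5.55e-05) for PHACTR3 to 0.03 ± 0.08 (SE, adjusted p = 0.788) for MYL9.

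Other genes of the contractile apparatus were read as lists. Beside the counts of these lists and of the marker lists below, 28.5% of all probes tested were called for age and 15.9% were called lower. With array weights 38.6% of all probes were called for age. Of 24 further filament and cytoskeleton genes of smooth muscle, 20 were tested, 7 were called lower at day 110 and 0 higher, with a median log2 difference of -0.18. At an unadjusted p under 0.05, 9 were lower and 1 was higher. Subtracting the array median gave 2 lower calls, and the other fits gave 6 to 9. HSPB7, a small heat shock protein of muscle, fell by 0.48 on the log2 scale (a log2 difference of -0.48 ± 0.08 SE, adjusted p = 5.25e-06). CNN2 and CNN3, the calponins of tissues beyond smooth muscle, had log2 differences of -0.41 ± 0.08 (SE) and -0.40 ± 0.08 (SE).

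Of 26 genes that set the force of contraction 21 were tested, of which 3 were called higher, 2 lower and 16 not called. Over all probes tested, 28.5% were called and 15.9% were called lower. The median log2 difference of the list was -0.02. PPP1R14A and ROCK2 were named after their values were seen. PPP1R14A, an inhibitor of the phosphatase that removes phosphate from myosin, rose by a log2 difference of 0.39 ± 0.08 (SE, adjusted p = 8.02e-05), and ROCK2, a kinase that acts on the same phosphatase, by 0.21 ± 0.06 (SE, adjusted p = 0.00529). GUCY1A3 and GUCY1B3, the subunits of the nitric oxide receptor that relaxes muscle, had log2 differences of -0.49 ± 0.10 and -0.41 ± 0.10 (SE). With the slide as a block 5 genes were called lower and with array weights 6.

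Among the transcription factors, MYOCD, the coactivator that turns on contractile genes, fell. Its log2 difference was -0.61 ± 0.15 (SE, adjusted p = 0.000845), and it was the 1 gene called of 6 tested. SRF, the DNA-binding partner of MYOCD, gave -0.15 ± 0.08 (SE, adjusted p = 0.142). MKL1, a relative of MYOCD, had no probe that passed the filter on dim signals.

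Because the samples were whole tissue, markers of other cells were read beside the contractile genes, and their part in the results was not tested. Of 8 fibroblast and matrix genes 4 were called lower at day 110, and none was higher even at an unadjusted p under 0.05. COL1A1 had a log2 difference of -0.81 ± 0.23, COL1A2 of -0.74 ± 0.13, DCN of -0.50 ± 0.08 and COL3A1 of -0.36 ± 0.11 (SE). The first, second and last encode fibrillar collagens and DCN a proteoglycan that binds them. The mean level of this list was 2.29 to 3.89 at day 90 and 2.01 to 4.20 at day 110.

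Of 7 tested genes of enteric neurons and glia, 3 were called lower. UCHL1, a neuronal hydrolase, had a log2 difference of -0.64 ± 0.11, ELAVL4, a neuronal RNA-binding protein, of -0.63 ± 0.17 and TUBB3, a neuronal tubulin, of -0.37 ± 0.11, while the glial gene S100B gave -0.06 ± 0.09 (SE). The list's mean ranged from -0.57 to -0.02 at day 90 and from -1.57 to 0.30 at day 110. The 3 tested markers of the pacemaker cells of Cajal and their neighbours, KIT (-0.22), ETV1 (-0.31) and PDGFRA (-0.22), were not called by limma, 1 passed an unadjusted p under 0.05, and array weights called 3. Their mean ranged from -0.67 to 0.61 at day 90 and from -0.96 to 0.59 at day 110.

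Vessel wall genes bear on ACTA2, which arteries also express. None of 9 was called for age by limma, although 6 were lower and 1 higher at an unadjusted p under 0.05. Array weights called 3 lower, and the fit without LWLW fetuses 484 and 469 called 1 lower. The brightest were PECAM1 of endothelium, with -0.13 ± 0.06, and PDGFRB of pericytes, with 0.19 ± 0.16 (SE). Besides PECAM1, those lower at an unadjusted p under 0.05 were NOTCH3 (-0.57 ± 0.23), KDR (-0.41 ± 0.14), MCAM (-0.34 ± 0.16), CDH5 (-0.29 ± 0.13) and RGS5 (-0.18 ± 0.08, SE). The higher one was VWF, with 0.47 ± 0.18, and CSPG4 gave -0.15 ± 0.16 (SE). PDGFRB was counted in the fibroblast list as well. Over the 9 genes the log2 differences ran from -0.57 to 0.47, with a median of -0.18. The list's mean ranged from -0.31 to 1.18 at day 90 and from -0.53 to 1.17 at day 110.

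Of 13 striated muscle genes, MYH1, MYH2, MYL1, MYL2, TTN and MYOD1 had no probe that passed the filter on dim signals. Of the 7 tested, 4 were called lower. MYH7, the slow myosin heavy chain, had a log2 difference of -0.96 ± 0.15, TNNI2, a fast troponin, of -0.92 ± 0.18 and ACTC1 of -0.49 ± 0.08 (SE). The signals of MYH7 and TNNI2 were low, with mean levels of -3.93 and -2.13. Of 6 MYH7 probes tested, 2 were called lower, as were all 3 of TNNI2 and all 3 of ACTC1. The list's mean ranged from -0.34 to 1.27 at day 90 and from -0.44 to 0.73 at day 110.

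Of 10 tested epithelial genes 4 were called higher and 3 lower. LCT, the lactase of the brush border, rose by a log2 difference of 1.37 ± 0.25, and KRT8, a keratin, by 0.26 ± 0.07 (SE). APOB, the core protein of chylomicrons, had -1.0 ± 0.27 and ANPEP, a brush border peptidase, -0.59 ± 0.16, while APOA4 gave 0.36 ± 0.33 and was not called (SE). The mean of this list ranged from 4.41 to 5.21 at day 90 and from 2.62 to 5.51 at day 110. Of 6 blood and immune genes, CD163, a macrophage receptor, rose by 0.94 ± 0.13, and HBB, a globin, had -1.68 ± 0.28 (SE). PTPRC, which marks leukocytes, gave 0.00 ± 0.09 (SE), and the mean of the list ranged from -2.26 to -0.21 at day 90 and from -2.61 to -0.70 at day 110.

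**Figure D5:**
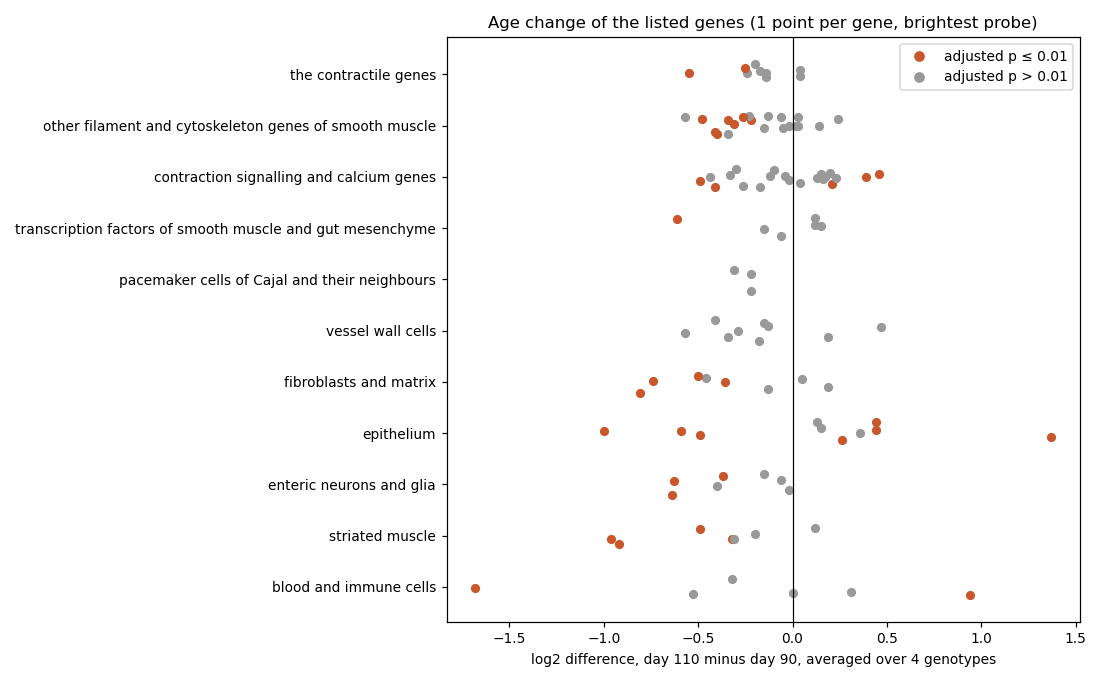
Each point is 1 gene at its brightest probe, placed by its log2 difference of day 110 minus day 90 averaged over 4 genotypes, with 1 row per list of genes and orange for an adjusted p of at most 0.01. The contractile genes lie between -0.55 and 0.04, the fibroblast and matrix genes between -0.81 and 0.19, and the epithelial genes between -1.0 and 1.37.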

How the data were processed

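Each of 63 fetal jejunum RNA samples was hybridised to 1 array of 61625 spots, and the submitters' notes name Agilent Feature Extraction 10.10.1.1. The authors deposited scanner files with background-subtracted, linear signal intensity per spot, and a matrix of 39446 probes holding quantile-normalized log2 median signals, which was used as an alternative. From the intensity values, log2(processed signal) minus the 75th percentile of each array was computed, with spots of 1 probe averaged and outlier spots left out. A probe was kept (40515 of 60305) where, in 1 group or more, 75% or more of the arrays held it well above background. No spot was saturated. limma 3.58.1 in R 4.3.3 fitted the 8 genotype by day means, with Benjamini-Hochberg adjustment over all kept probes. Calls needed an adjusted p of at most 0.01 for age and breed and under 0.05 for sow, sire and interaction, and the F test over all 8 groups needed one under 0.01. The scripts were tested on simulated data.

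Groups came from the labels. Arrays lay on 8 slides, each holding both days, and no 2 arrays held identical values. The sow was not a term, so p-values measure the spread between fetuses, and no depth is known beyond the signal over background. The fetuses of a litter share their sow and were obtained by caesarean, so that age and sow breed varied between litters. The p-values for age and sow breed may therefore be too small. All fetuses were kept, and leaving out LWLW fetuses 484 and 469 was an alternative. The other alternatives were quantile, median and normexp (offset 50) processing, the authors' matrix, other filters, the slide as a block, array weights, the mean of all probes of a gene, and other thresholds.

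The genes named were the members at their brightest probe, SRF, MYOCD and MKL1, up to 3 called genes of largest age change per list, the 2 brightest of each marker list and the 10 most like the members' mean. The rest of the vessel wall genes were named too, after their values were seen. The members and lists were chosen with earlier results of these data known. Probe sequences and gene names came from the scanner files, and LMOD1 was not analysed here. Some sequences and 1 listed gene are not reported here.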

Additional observations from a re-analysis of the deposited data

Results flagged for a closer look

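Of 72 combinations of a gene and a group, 3 held 1 fetus whose distance from the nearest other fetus took up most of the range of its group, by Dixon's criterion at the 95% level, a rate that chance alone gives in about 5% of groups. In LWLW at day 90, fetus 462 had an ACTA2 level of 7.71, and the next highest was 7.23. In MSMS at day 110, fetus 627 had a MYLK level of 7.32, above the next highest of 6.77, and it was the 1 fetus of that group not below every MSMS fetus of day 90. In LWMS at day 110, fetus 609 had a TPM2 level of 5.78, above the next highest of 5.12, and it was highest for 8 of the 9 genes in its group.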

How the results depend on the processing

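ACTA2 was called for age, averaged over genotypes, in every fit run, and its log2 difference stayed between -0.58 and -0.50. The count of 2 genes called for age became 1 with quantile normalization, with the array median subtracted, with the authors' matrix and with a log2 difference of at least 0.5, and 4 with an adjusted p under 0.05. In LWLW that threshold gave 1. In LWMS the array median gave 0 and the mean of all probes 3. In MSLW the count was 0 with quantile normalization, the array median, the authors' matrix, no filter, the slide as a block and without the 3 farthest arrays (chosen after seeing the data), and 2 with the mean of all probes. The sow count was 1 with the authors' matrix and 4 with array weights. The count over all 8 groups was 6 with array weights, 3 with the mean of all probes and 2 with an adjusted p under 0.05. For CALD1 the age difference turned to -0.02 with quantile normalization, -0.01 with the authors' matrix and -0.06 with array weights, and it was not called in any of them. The cause of these changes was not tested. Of 141 counts of contractile genes over all fits and thresholds, 121 were equal or close to that of the main fit, and these include counts of 0 in both. Subtracting the array median moved the median age difference of all probes from -0.022 to 0.029. No paired analysis was possible because the numbers in the labels are fetus numbers, which the groups do not share. Probes near background, such as O13670, limit what can be said of them.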
